A study of Homo sapiens with 6 samples.

Results

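The mitochondrially encoded transcripts of HCT116 cells were analyzed in libraries with and without an siRNA against the long non-coding RNA AC010789.1. The members were chosen by gene symbol: every transcript of the deposited count table whose GENCODE v29 symbol begins with MT-. This rule selected 37 of the 18750 genes in the table, and they are the 13 mRNA, 2 rRNA and 22 tRNA genes of the mitochondrial chromosome. Each of them has 1 annotated transcript, so its gene count is the count of that transcript. The measured values entered the choice in that every listed transcript has a summed count of 3 or more, and in that a difference in MT-TV between the groups was already known when the members were chosen. That difference is therefore given as a description.

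HCT116 is an established human colorectal cancer line, here grown in DMEM with fetal bovine serum and penicillin-streptomycin. The si-AC010789.1 group (3 libraries) received the specific siRNA and the siRNA-NC group (3 libraries) a negative control siRNA, both by lipofection, so that all 6 libraries come from transfected cells. RNA was collected in bulk and paired-end TruSeq libraries were sequenced on a NovaSeq instrument. The labels do not give the time after transfection, and they only number the replicates. The study describes its repeats as biological ones from different generations of the cells, without saying which libraries of both groups shared a generation. In bulk RNA, less of an RNA per cell and fewer cells that carry it cannot be told apart.

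The human mitochondrial chromosome is a small circle that is copied into RNA from both strands. RNA polymerase POLRMT, with the factors TFAM and TFB2M, makes long precursors in which tRNAs lie between most of the rRNAs and mRNAs, and the tRNAs are cut out at their 5′ ends by the mitochondrial RNase P and at their 3′ ends by ELAC2. The released mRNAs encode subunits of complexes I, III, IV and V of the respiratory chain and ATP synthase, and the rRNAs and tRNAs serve the ribosomes that translate them inside the organelle. MT-ND6 is the only mRNA taken from the opposite (light) strand, and its coding sequence held 35.6% G, against 6.28% to 16.2% in the mRNAs of the heavy strand. In 6 of the 13 mRNAs the annotated sequence ends in an incomplete stop codon (T in 5 and TA in MT-ND1), which the poly(A) tail completes.

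The sequences of 6 tRNA genes are shown because these are the tRNAs whose levels did not overlap between the groups. They were taken from the GENCODE v29 transcripts (GRCh38), are written 5′ to 3′ in the sense of the tRNA as DNA letters, and carry the anticodon in capitals. MT-TF is the tRNA for phenylalanine at chrM:577-647 on the plus strand, MT-TV that for valine at chrM:1602-1670 (plus), MT-TI that for isoleucine at chrM:4263-4331 (plus), MT-TM that for methionine at chrM:4402-4469 (plus), MT-TQ that for glutamine at chrM:4329-4400 (minus) and MT-TE that for glutamic acid at chrM:14674-14742 (minus).
MT-TF: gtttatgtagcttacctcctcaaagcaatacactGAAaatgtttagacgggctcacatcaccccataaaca
MT-TV: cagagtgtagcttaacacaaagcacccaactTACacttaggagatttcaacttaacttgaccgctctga
MT-TI: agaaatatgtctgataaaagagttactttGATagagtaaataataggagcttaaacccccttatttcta
MT-TM: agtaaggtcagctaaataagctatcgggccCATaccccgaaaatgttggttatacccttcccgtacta
MT-TQ: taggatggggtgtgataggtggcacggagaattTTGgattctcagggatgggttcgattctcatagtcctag
MT-TE: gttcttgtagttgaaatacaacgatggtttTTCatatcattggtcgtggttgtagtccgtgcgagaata
MT-TF lies directly before the 12S rRNA gene MT-RNR1, and MT-TV fills the space between MT-RNR1 and the 16S rRNA gene MT-RNR2. MT-TI, MT-TQ and MT-TM form a block between MT-ND1 and MT-ND2, in which MT-TI and MT-TQ overlap by 3 nt on opposite strands, and MT-TE lies beside MT-ND6. The 22 tRNA genes are 59 to 75 nt long, shorter than the inserts usually kept in such libraries, and a count on a tRNA gene does not separate a mature tRNA from an unprocessed precursor. The strand setting of the counting is not given in the sources used here, so reads from both strands of a gene cannot be told apart.

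The authors deposited unnormalized counts per transcript, with totals from 11277222 to 13443866 per library, at which 3 counts correspond to 0.223 to 0.266 CPM (counts scaled to the size of the library). The level of AC010789.1 was not analysed here, so the labels were not checked against the targeted gene. Of 12 epithelial and colorectal markers, 6 were among the genes analysed here. KRT8 (444 to 850 CPM) and KRT18 (351 to 535 CPM) were abundant, while EPCAM did not exceed 5.59 CPM, CDH1 did not exceed 1.05 CPM, and LGALS4 and CDH17 had at most 3 counts in a library. Taken alone, the low levels go against the label of an epithelial colorectal line, while those of KRT8 and KRT18 go with an epithelial one. The study itself reported E-cadherin, the product of CDH1, in HCT116 cells by western blot, qRT-PCR and immunofluorescence. The levels given here count only the transcripts listed in the deposited counts. The part of these marker levels in the results was not tested. Of 5 markers of other cells, COL1A1 was among the genes analysed here, at 37.8 to 48.0 CPM with overlapping groups.

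Together, the mitochondrial genes took 7.56%, 8.11% and 8.65% of all counts in siRNA-NC replicates 1 to 3 and 8.10%, 8.36% and 8.27% in replicates 1 to 3 of si-AC010789.1. The groups overlapped, and siRNA-NC replicates 1 and 3 lay below and above all si-AC010789.1 libraries. The mean share was 8.11% ± 0.542 (SD, n = 3) with siRNA-NC and 8.24% ± 0.128 (SD, n = 3) with si-AC010789.1, a difference of 0.136 percentage points (two-sided exact permutation test, p = 0.8; 3 against 3 libraries cannot go below 0.1). The siRNA-NC libraries were also the more variable ones gene by gene, although genes cut from shared precursors are not independent of each other. Among the 13 mRNAs, siRNA-NC replicate 1 was the lowest of its group for 12 and replicate 3 the highest for 11, and the median coefficient of variation was 9.0% in siRNA-NC against 1.6% with si-AC010789.1. For the 14 tested tRNAs this median was 18.2% in siRNA-NC against 10.4% with si-AC010789.1. Genes outside the members were not compared in this way.

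Per length, the 16S rRNA and the mRNAs other than MT-ND3 had the most counts among the members, and the tRNA genes other than MT-TL1 the fewest. The study made these libraries to profile mRNA, so counts of the RNA classes need not reflect their amounts in the cell. In siRNA-NC the mean level was 12463 CPM per kb for MT-ND4L (SD 640), a small subunit of complex I, and 12208 CPM per kb for MT-CO1 (SD 633), the catalytic subunit of complex IV, and these neighbours in the order did not differ beyond their spread. MT-CO3, MT-ND4, MT-ATP8 and MT-CO2 followed at 10189, 9968, 9903 and 8747 CPM per kb, and the order of the first 3 of these also lies within their spread. MT-ND3 was the lowest mRNA at 828 CPM per kb, below MT-TL1 and below the 12S rRNA MT-RNR1 at 1123. MT-TL1, the tRNA for leucine that directly follows the 16S rRNA, reached 1752 CPM per kb, while the next tRNA, MT-TV, had 122.9 CPM per kb and MT-TC, for cysteine, 1.21. In si-AC010789.1, MT-ND4L and MT-CO1 again led, at 12099 and 11413 CPM per kb. MT-ATP8 and MT-ATP6 share 46 nt and MT-ND4L and MT-ND4 share 7 nt, so their levels depend on how shared reads were counted, which is not given in the sources used here.

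**Figure D1:**
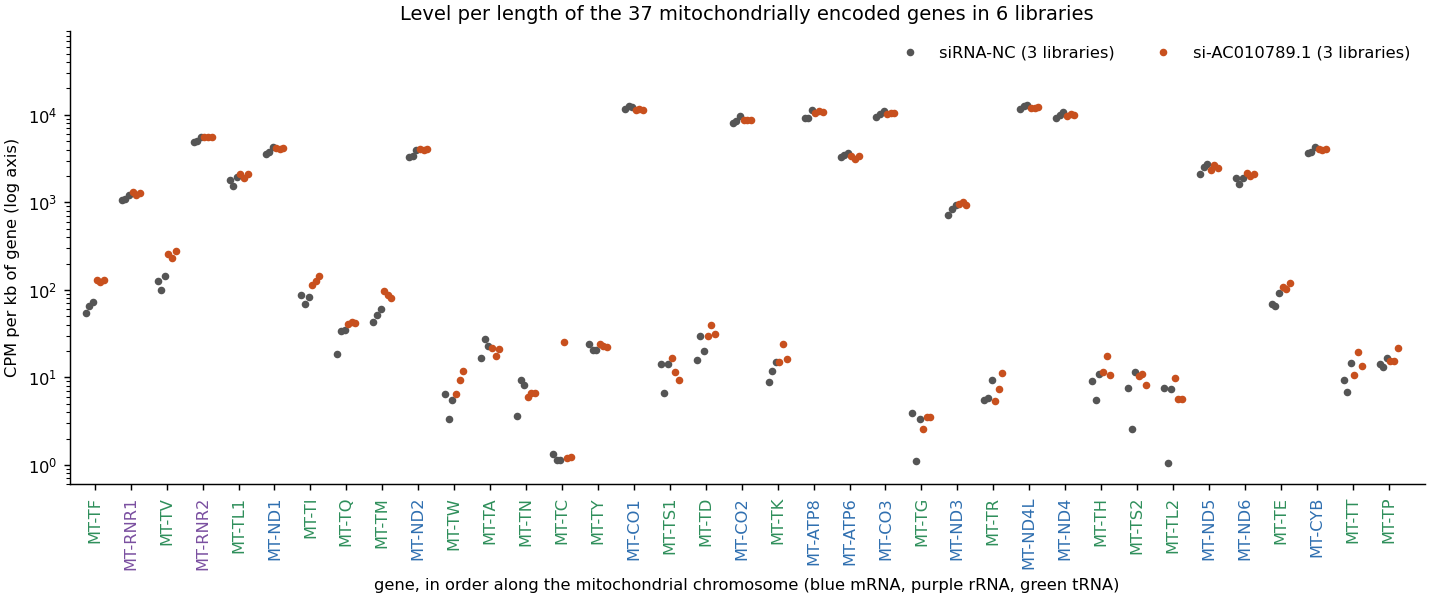
Level of each of the 37 mitochondrially encoded genes in CPM per kb of gene length (vertical log axis), with genes in their order along the chromosome (horizontal axis) and 1 point per library. The mRNAs, the rRNAs and MT-TL1 lie above all other tRNAs, and the isolated high point of MT-TC is si-AC010789.1 replicate 1 (19 counts, against 1 count in each of the other libraries).

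In the comparison of si-AC010789.1 with siRNA-NC, the called members were the tRNA genes MT-TF and MT-TV, both about 1 higher on the log2 scale. The MT-TV difference was known beforehand, and 0 of the mRNAs and rRNAs were called. Counts were tested across the 13750 genes that passed a filter on low counts, with edgeR's quasi-likelihood test and Benjamini-Hochberg adjustment over all of them. Of the 37 members, 29 passed the filter (13 mRNAs, 2 rRNAs and 14 tRNAs), and the 8 tRNAs that did not had 1 to 19 counts in a library (MT-TC, MT-TG, MT-TH, MT-TL2, MT-TN, MT-TR, MT-TS2 and MT-TW). MT-TF and MT-TV were higher in si-AC010789.1 at an adjusted p under 0.05 and 0 members were lower, but MT-TV was known to lie past this threshold when the members were chosen, so it is described without a test. Of all genes tested, 0.982% were called in either direction and 0.284% were called higher. The cutoffs of the study (unadjusted p under 0.05, with a log2 change of more than 1 in size) were put on the edgeR values. MT-TV alone was called by them among the members, against 0.364% of all genes called higher, and nothing is read from this. The study used Cuffdiff, and its discussion mentions leaving out genes that differed within the group, which was not done here.

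MT-TF had 44, 61 and 69 counts in siRNA-NC replicates 1 to 3 and 104, 108 and 115 in replicates 1 to 3 of si-AC010789.1. The groups were clearly apart and the si-AC010789.1 libraries were close to each other. Its mean level was 4.56 ± 0.639 CPM (SD, n = 3) with siRNA-NC and 9.01 ± 0.348 CPM (SD, n = 3) with si-AC010789.1, which is 0.98 on the log2 scale (SE 0.15, edgeR adjusted p = 0.0446). MT-TF and MT-TV lie on either side of MT-RNR1 and are cut from shared precursors. The MT-TF call is therefore not independent of the MT-TV difference that was known when the members were chosen. MT-TV had 97, 92 and 132 counts with siRNA-NC and 205, 198 and 234 with si-AC010789.1, again with no overlap. Its level went from 8.48 ± 1.49 to 17.6 ± 1.59 CPM (SD, n = 3 each), with a log2 fold change of 1.05 (SE 0.16).

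The tRNAs MT-TI, MT-TM and MT-TE had an unadjusted p under 0.05 but did not pass the adjusted threshold. MT-TI had 6.03, 4.75 and 5.78 CPM with siRNA-NC and 7.77, 8.63 and 9.96 CPM with si-AC010789.1 (log2 fold change 0.67, SE 0.16, edgeR adjusted p = 0.114). The MT-TM levels were 2.92, 3.54 and 4.13 CPM with siRNA-NC and 6.64, 5.99 and 5.51 CPM with si-AC010789.1 (log2 fold change 0.77, SE 0.18, edgeR adjusted p = 0.111). For MT-TE, which is read from the light strand, 4.70, 4.52 and 6.30 CPM in siRNA-NC stood beside 7.42, 7.11 and 8.18 CPM with si-AC010789.1 (log2 fold change 0.55, SE 0.17, edgeR adjusted p = 0.191). In each of them the lowest si-AC010789.1 library was above the highest siRNA-NC library. The same held for MT-TQ, with 1.33, 2.41 and 2.48 CPM against 2.97, 3.12 and 3.00 CPM, whose log2 fold change of 0.53 had an SE of 0.27 (edgeR adjusted p = 0.366). Together, the groups were apart for 6 of the 14 tested tRNAs, each higher in si-AC010789.1 and MT-TV again among them. Of all genes tested, 12.2% were apart and higher. The tRNAs that were not tested overlapped between the groups. An unadjusted p under 0.05 with a higher level was found for 5 of the 14 tested tRNAs, MT-TV among them, and for 8.25% of all genes tested. Both counts include MT-TV, whose difference was already known, and no test is read from them.

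**Figure D2:**
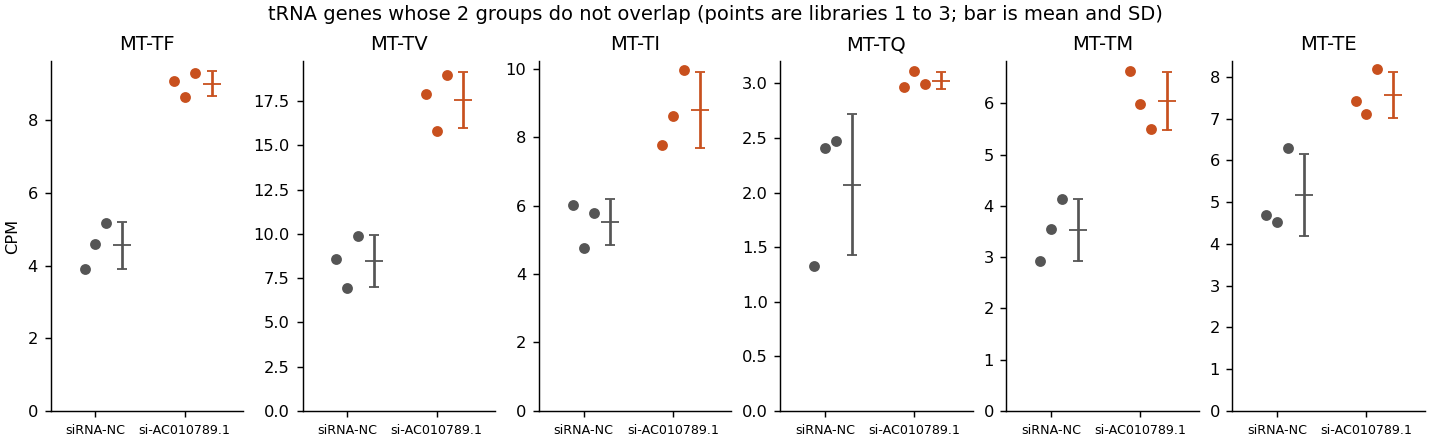
Level in CPM (vertical axis from 0) of the 6 tRNA genes whose groups did not overlap, with 1 point per library and the mean and SD of the 3 libraries of each group. MT-TV had means of 8.48 and 17.6 CPM and MT-TF means of 4.56 and 9.01 CPM, and the other 4 did not pass the adjusted threshold.

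The remaining tested tRNAs overlapped between the groups. MT-TL1, by far the most counted tRNA, had 1532, 1514 and 1921 counts with siRNA-NC and 1830, 1767 and 1967 with si-AC010789.1 (log2 fold change 0.22, SE 0.10, edgeR adjusted p = 0.316). MT-TY, for tyrosine, had 18 counts in each of 5 libraries and 19 in si-AC010789.1 replicate 2. MT-TD, for aspartic acid, had 12, 27 and 18 counts with siRNA-NC and 23, 34 and 26 with si-AC010789.1, and MT-TA, for alanine, had 13, 25 and 21 against 17, 15 and 18. The group ranges of both overlapped, and MT-TA was the only tested tRNA with a log2 fold change below 0 (-0.16, SE 0.27). MT-TK (lysine), MT-TP (proline), MT-TS1 (serine) and MT-TT (threonine) had log2 fold changes of 0.61, 0.24, 0.11 and 0.48, with 6 to 21 counts in a library. MT-TK had 7, 11 and 14 counts with siRNA-NC and 12, 21 and 14 with si-AC010789.1, and MT-TP had 11, 12 and 15 against 12, 13 and 18. For MT-TS1 they were 11, 6 and 13 against 13, 10 and 8, and for MT-TT 7, 6 and 13 against 8, 16 and 11.

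Over the 14 tRNAs that passed the filter, 13 log2 fold changes were above 0 and the median was 0.54, beside a median of -0.00066 over all genes tested. A gene that passes the filter only through its higher group has to differ, so this median does not describe all 22 tRNAs. The 8 tested tRNAs of the heavy strand, from MT-TF to MT-TT, were all above 0 with a median of 0.64. Of the 6 tested tRNAs of the light strand, 5 were above 0, with a median of 0.17. The difference between the strands was not tested.

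The 2 rRNAs and the 13 mRNAs had 0 calls at the adjusted threshold with edgeR. At an unadjusted p under 0.05 there were 3 of these 15, MT-RNR1, MT-ND2 and MT-ND6, each higher in si-AC010789.1. Of all genes tested, 8.25% were higher at this p and 17.2% had it in either direction. MT-RNR1 had 1007, 1037 and 1169 CPM with siRNA-NC and 1259, 1150 and 1216 CPM with si-AC010789.1, with overlapping groups (log2 fold change 0.17, SE 0.07, edgeR adjusted p = 0.268). MT-RNR2 had 7609, 7845 and 8707 CPM against 8763, 8767 and 8764 CPM. Its groups did not overlap, but the gap between them was small beside the spread within siRNA-NC (log2 fold change 0.12, SE 0.06, edgeR adjusted p = 0.331).

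Among the complex I mRNAs, MT-ND2 had 3391, 3484 and 4074 CPM with siRNA-NC and 4235, 4155 and 4216 CPM with si-AC010789.1 (log2 fold change 0.20, SE 0.07, edgeR adjusted p = 0.235). The light-strand MT-ND6 had 1006, 856 and 1004 CPM against 1139, 1052 and 1101 CPM (log2 fold change 0.20, SE 0.07, edgeR adjusted p = 0.24). These were the only mRNAs whose groups did not overlap, and both were higher in si-AC010789.1. MT-ND3 had the largest value of the mRNAs, 0.21 (SE 0.10), with 245, 291 and 323 CPM against 328, 345 and 321 CPM and an overlap at siRNA-NC replicate 3. MT-ND1 had 3372, 3578 and 4149 CPM against 3962, 3914 and 3999 CPM, also with overlap. Over the 29 tested members the groups were apart for 9, MT-TV among them, each higher in si-AC010789.1, and 0 were apart and lower. Of all genes tested, 12.2% were apart and higher and 12.9% apart and lower.

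MT-ND4 had 12546, 13789 and 14871 CPM with siRNA-NC and 13404, 14101 and 13812 CPM with si-AC010789.1, and MT-ND4L had 3492, 3748 and 3864 CPM against 3568, 3563 and 3650 CPM. MT-ND5 had 3783, 4584 and 4920 CPM against 4195, 4857 and 4522 CPM. In these 3 complex I mRNAs the si-AC010789.1 libraries lay inside the range of siRNA-NC.

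The complex III subunit cytochrome b, MT-CYB, had 4136, 4323 and 4854 CPM with siRNA-NC and 4634, 4554 and 4602 CPM with si-AC010789.1. Of complex IV, the enzyme that reduces oxygen, MT-CO1 had 17761, 19678 and 19033 CPM against 17301, 17784 and 17709 CPM, the lowest log2 fold change of the mRNAs (-0.10, SE 0.05, edgeR adjusted p = 0.352). MT-CO2 had 5518, 5767 and 6665 CPM against 5983, 6020 and 5969 CPM, and MT-CO3 had 7388, 8014 and 8562 CPM against 7962, 8214 and 8119 CPM. All of these overlapped. Of ATP synthase (complex V), MT-ATP6 had 2259, 2347 and 2525 CPM against 2282, 2141 and 2288 CPM, and MT-ATP8 had 1913, 1918 and 2319 CPM against 2166, 2296 and 2232 CPM, also with overlap. The 13 mRNA log2 fold changes ran from -0.10 to 0.21 with a median of 0.03.

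**Figure D3:**
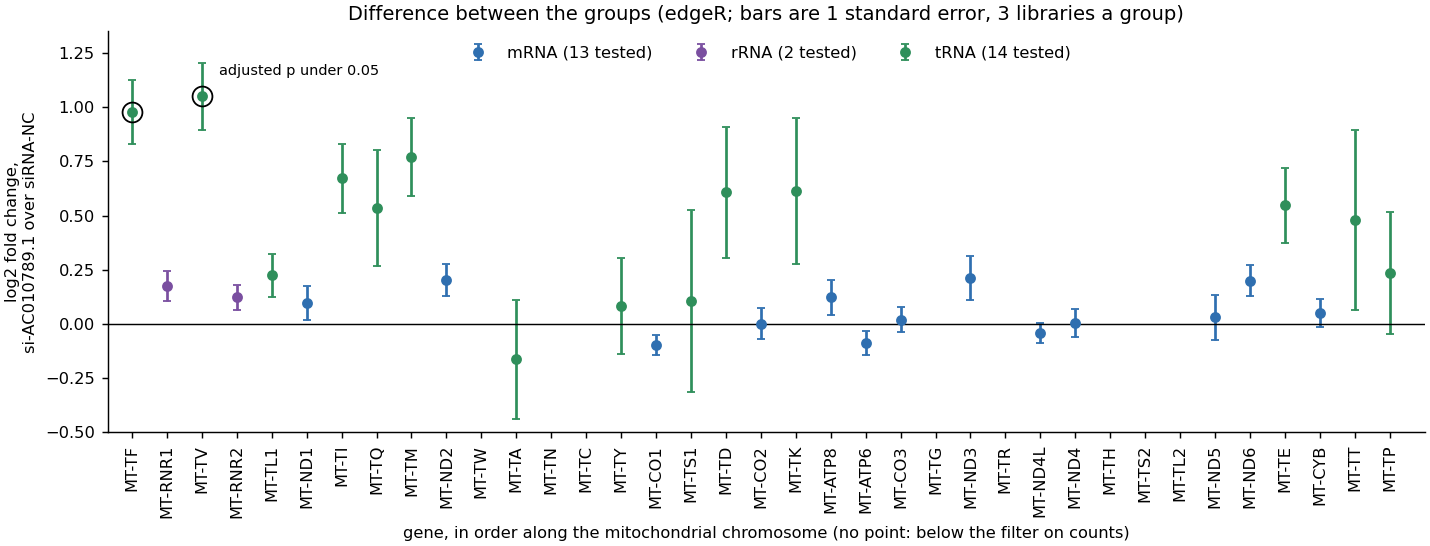
Log2 fold change of si-AC010789.1 over siRNA-NC (vertical axis, edgeR; bars are 1 SE of 3 against 3 libraries) for the 29 tested members in chromosome order (horizontal axis), coloured by class. The circled MT-TF and MT-TV were called, the mRNAs lie between -0.10 and 0.21, and the tRNAs with few counts have the widest bars.

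The composition of the mitochondrial counts was then compared, since a share within them does not depend on how the libraries were scaled. The 21 tRNA genes other than MT-TL1 summed to 423, 487 and 613 counts with siRNA-NC and 755, 797 and 840 with si-AC010789.1. As a share of mitochondrial counts this was 0.0491% ± 0.00383 (SD, n = 3) with siRNA-NC and 0.0799% ± 0.00294 (SD, n = 3) with si-AC010789.1. With MT-TL1 included the share was 0.211% ± 0.0228 against 0.266% ± 0.0171 (SD, n = 3 each), and the groups again did not overlap. Both sums include the called MT-TF and MT-TV and are given without a test. MT-TL1, which has most of the tRNA counts and overlapped between the groups, is in the second sum only. The rRNAs took 11.4%, 10.9% and 11.3% of mitochondrial counts with siRNA-NC and 12.3%, 11.9% and 12.1% with si-AC010789.1, without overlap.

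The mRNAs of the heavy strand correspondingly took 87.0%, 87.9% and 87.3% with siRNA-NC and 86.0%, 86.6% and 86.3% with si-AC010789.1. Complex IV mRNAs took 40.6%, 41.1% and 39.3% with siRNA-NC and 38.4%, 38.5% and 38.4% with si-AC010789.1, so that all si-AC010789.1 libraries were lower. Among these mRNAs the edgeR log2 fold change was -0.10 for MT-CO1, 0.0018 for MT-CO2 and 0.020 for MT-CO3. The lower share of complex IV is therefore not shared by each of its mRNAs. The rRNA, heavy-strand mRNA and complex IV comparisons each had p = 0.1 in the two-sided exact permutation test, the smallest that 3 against 3 libraries allow. Without the 2 rRNA genes in the total, the heavy-strand mRNA difference shrank from -1.10 to -0.254 percentage points and the exact permutation p was 0.2. The shares of complex I, complex III, complex V and MT-ND6 overlapped between the groups, with mean differences of 0.810, 0.129, -0.0151 and 0.154 percentage points.

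**Figure D4:**
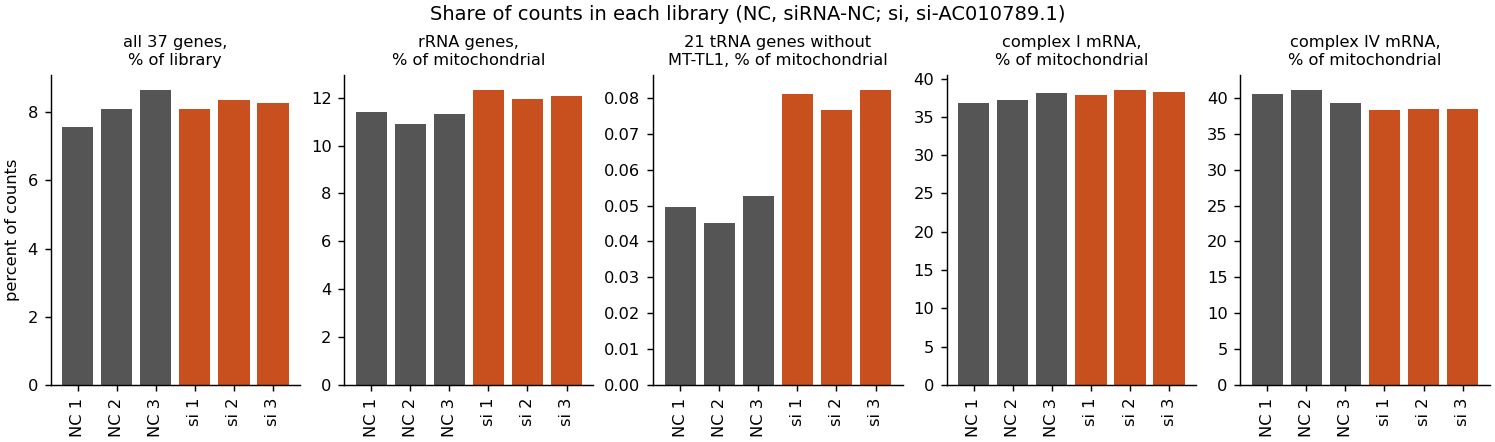
Percent of counts (vertical axes from 0) in each of the 6 libraries for all 37 genes as a share of the library, and for rRNA genes, the 21 tRNA genes other than MT-TL1, complex I mRNAs and complex IV mRNAs as a share of mitochondrial counts. The share of these 21 tRNA genes, which include MT-TF and MT-TV, is higher in all si-AC010789.1 libraries (mean 0.0799% against 0.0491%). With MT-TL1 included the means are 0.266% and 0.211%. The share of all 37 genes overlaps between the groups.

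Levels of the tRNAs were also set against the rRNA or mRNA genes beside them, which are cut from the same precursors. MT-TF had 3.87, 4.44 and 4.43 counts per 1000 counts of MT-RNR1 with siRNA-NC and 7.21, 7.51 and 7.66 with si-AC010789.1. MT-TV had 0.998, 0.781 and 1.00 counts per 1000 counts of both rRNAs with siRNA-NC and 1.79, 1.60 and 1.90 with si-AC010789.1. For MT-TI and MT-TM per 1000 counts of MT-ND1 and MT-ND2, the means went from 0.756 to 1.08 and from 0.479 to 0.741, and for MT-TE per 1000 counts of MT-ND6 from 5.41 to 6.90. The groups did not overlap in these 5 ratios. All 5 of these tRNAs already had levels that did not overlap between the groups. The ratios are therefore given as a description, and no test is read from them. MT-TL1 per 1000 counts of MT-RNR2 and MT-ND1 was 12.4, 9.99 and 11.2 with siRNA-NC and 12.6, 11.1 and 12.5 with si-AC010789.1, with overlap. The ratio of MT-RNR2 to MT-RNR1 was 7.52 ± 0.0678 with siRNA-NC and 7.26 ± 0.337 with si-AC010789.1 (SD, n = 3 each), also with overlap. Nuclear genes whose counted transcripts span under 200 nt were read from the same fit, in which 37 of 1121 were tested. Of these 37, 0 were called by edgeR and 0 had an unadjusted p under 0.05, against 0.982% and 17.2% of all genes tested. Their median log2 fold change was -0.03. The groups were apart for 1 higher and 3 lower, against 12.2% and 12.9% of all genes tested. Their counts were not matched to those of the tRNAs, and a part of gene length was not tested.

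Nuclear copies of mitochondrial genes can take reads that belong to the mitochondrial chromosome, because their sequences are nearly the same. MTCO1P12 at chr1:631074-632616 (GRCh38; 98.7% identical to MT-CO1 over the aligned part) had 19989, 25696 and 25919 counts with siRNA-NC and 19761, 21426 and 21276 with si-AC010789.1. MTATP6P1 at chr1:633696-634376 (98.5% identical to MT-ATP6) had 16567, 610 and 22355 counts with siRNA-NC and 16971, 16964 and 404 with si-AC010789.1. It was thus far lower in 1 library of each group, while MT-ATP6 itself was not lower in these libraries. MTND4P12 at chr5:134926660-134928036 (95.7% identical to MT-ND4) had 3558 counts in si-AC010789.1 replicate 1 and 1292 to 1933 in the other libraries. The levels of MT-CO1, MT-ATP6 and MT-ND4 are uncertain by these amounts. MTRNR2L12, a nuclear gene on chromosome 3 derived from the 16S rRNA, had 1, 12 and 11 counts with siRNA-NC and 16, 264 and 151 with si-AC010789.1 (log2 fold change 4.19, SE 1.07, edgeR adjusted p = 0.131), and the groups did not overlap. With the counts of the 8 nuclear pseudogenes named after a mitochondrial gene added to that gene, the edgeR adjusted p of MT-TF was 0.0447 and the mRNA median was 0.03.

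Among the nuclear genes that make, process and translate mitochondrial RNA, 1 was called. The 10 lists with 267 different genes, all of which were tested, held 0 genes called higher and 1 called lower by edgeR, against 0.982% of all genes called in either direction. At an unadjusted p under 0.05, 15 of the 267 were higher and 16 lower, beside 8.25% and 8.92% of all genes tested. Their median log2 fold change was -0.0038, and the groups were apart for 28 higher and 29 lower, where 12.2% and 12.9% of all genes tested were apart and higher or lower. The gene called was OXA1L, which inserts newly made proteins into the inner membrane, with 117, 129 and 122.8 CPM with siRNA-NC and 80.4, 67.0 and 84.6 CPM with si-AC010789.1 (log2 fold change -0.67, SE 0.10, edgeR adjusted p = 0.0418). All si-AC010789.1 libraries were below all siRNA-NC libraries, but leaving out any of the 6 libraries (edgeR adjusted p from 0.0728 to 0.128) or the filter on low counts (0.0676) ended the call.

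Among the 11 transcription genes, 0 were called, and 1 had an unadjusted p under 0.05, with a higher level, where 8.25% of all genes tested did. POLRMT, the RNA polymerase, had 73.8 ± 2.78 CPM with siRNA-NC and 77.6 ± 3.96 CPM with si-AC010789.1 (SD, n = 3 each), and TFAM, which packages and bends the DNA at the promoters, had 91.5 ± 3.64 against 90.2 ± 5.19 CPM. TFB2M, which opens the promoter, had 30.5, 30.0 and 31.4 CPM against 32.1, 37.7 and 32.1 CPM, with groups apart (log2 fold change 0.15, edgeR adjusted p = 0.463). The elongation factor TEFM was low in both groups, at 8.95, 7.24 and 6.90 CPM with siRNA-NC and 4.54, 7.91 and 8.10 CPM with si-AC010789.1. The mitochondrial topoisomerase TOP1MT, on the list of 15 DNA copying genes (0 called), had 37.1, 34.6 and 38.3 CPM against 40.1, 42.4 and 39.0 CPM, also apart (log2 fold change 0.14, edgeR adjusted p = 0.39).

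The enzymes that cut tRNAs out of the precursors were on a list of 12 genes, of which 0 were called and 0 had an unadjusted p under 0.05. TRMT10C, a subunit of RNase P, had 63.7, 62.3 and 59.5 CPM with siRNA-NC and 57.1, 56.4 and 56.4 CPM with si-AC010789.1, lower in each library (log2 fold change -0.13, SE 0.06, edgeR adjusted p = 0.332). HSD17B10, another subunit, had 74.2 ± 3.50 against 74.9 ± 3.63 CPM (SD, n = 3 each). The catalytic subunit PRORP, named KIAA0391 in the annotation used, had 23.5, 27.2 and 27.8 CPM against 22.3, 26.4 and 12.6 CPM, lowest in si-AC010789.1 replicate 3. ELAC2, which cuts the 3′ end, had 99.4 ± 12.3 against 103 ± 4.55 CPM (SD, n = 3 each). The last 3 of these genes overlapped between the groups.

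Of 19 tRNA maturation genes 0 were called and 8 were above 0. TRNT1, which adds the CCA end to tRNAs, had 37.3, 35.0 and 41.5 CPM with siRNA-NC and 30.3, 26.7 and 27.4 CPM with si-AC010789.1. Its groups were apart, with a log2 fold change of -0.43 (SE 0.10), and it did not pass the threshold with edgeR (adjusted p = 0.104), although it did with DESeq2 (adjusted p = 0.0287). Among the 22 mitochondrial aminoacyl-tRNA synthetases 0 were called. VARS2, which charges the valine tRNA, had 27.0, 23.5 and 15.6 CPM with siRNA-NC and 34.8, 28.6 and 32.9 CPM with si-AC010789.1 (log2 fold change 0.54, SE 0.20, edgeR adjusted p = 0.248), apart but with wide spread in siRNA-NC.

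In the list of 13 genes of RNA stability, tailing and decay 0 were called. Of the 13, 4 had an unadjusted p under 0.05, 3 of them higher. Among all genes tested, 17.2% had such a p and 8.25% were higher with it. The lower gene, DHX30, had the smallest adjusted p of the list. It had 149 ± 5.47 against 125 ± 2.55 CPM (SD, n = 3 each), with groups apart (log2 fold change -0.24, SE 0.05, edgeR adjusted p = 0.0836). MTPAP, the poly(A) polymerase, had 17.2, 17.9 and 18.8 CPM with siRNA-NC and 20.4, 22.1 and 26.2 CPM with si-AC010789.1 (log2 fold change 0.35, SE 0.11, edgeR adjusted p = 0.196). SLIRP had 22.5, 21.6 and 21.8 CPM against 23.8, 26.0 and 28.7 CPM. Its partner LRPPRC, with which it stabilizes the mRNAs, had 393 ± 16.0 against 373 ± 2.87 CPM (SD, n = 3 each). SLIRP was higher (edgeR adjusted p = 0.243) and LRPPRC lower (adjusted p = 0.42) in each si-AC010789.1 library, and neither passed. PNPT1, the exonuclease of the degradosome, had 98.3 ± 1.68 against 91.8 ± 2.80 CPM (SD, n = 3 each), apart, and its helicase SUPV3L1 had 56.2, 56.2 and 59.6 against 61.8, 55.7 and 63.9 CPM, overlapping.

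The larger lists had medians near 0 and 0 calls. The 78 mitochondrial ribosomal proteins had a median log2 fold change of -0.02, with 3 higher and 7 lower at an unadjusted p under 0.05, and the 78 nuclear-encoded respiratory chain subunits had a median of 0.02, with 5 higher and 2 lower, where 8.25% of all genes tested were higher and 8.92% lower at this p. Of 10 rRNA modification genes 0 were called (median -0.03), and of 12 translation factors OXA1L was the 1 called (median -0.04).

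The size of the MT-TF difference changed little with the way the counts were treated, while its call did. Over 16 alternatives the log2 fold change ran from 0.88 to 1.08 for MT-TF and from 0.92 to 1.18 for MT-TV. Leaving out any of the 6 libraries took MT-TF above the threshold, with edgeR adjusted p-values from 0.0858 to 0.143. Its call was also lost without a filter on low counts (edgeR adjusted p = 0.0727), with the summed mitochondrial counts as library size (0.0624), with single transcripts (0.608) and with the replicate number as a block (0.174). MT-TV was past the threshold in none of these fits either.

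**Figure D5:**
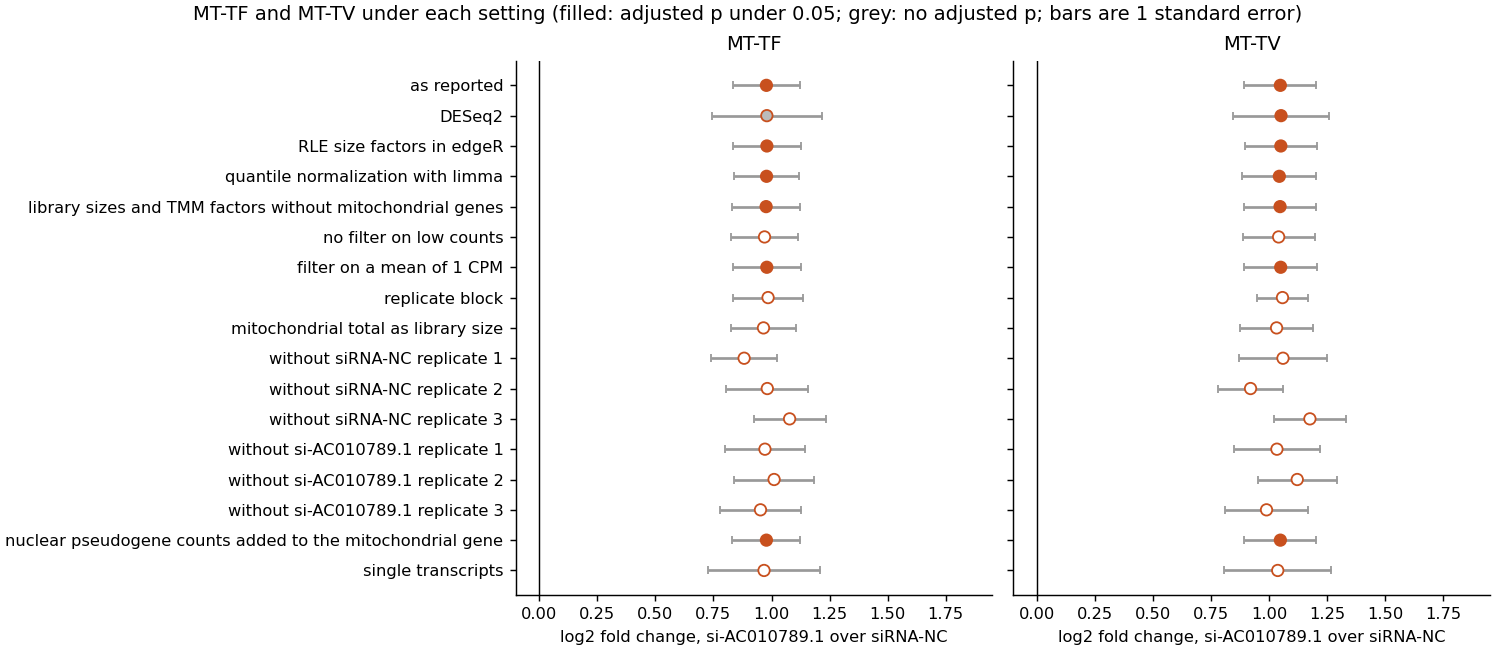
Log2 fold change of MT-TF (left) and MT-TV (right) on the horizontal axes, with 1 SE, under the reported fit and its alternatives (vertical axis), where filled points have an adjusted p under 0.05 and the grey point has none. All estimates lie between 0.88 and 1.18, and all 6 fits that leave out a library have open points.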

How the data were processed

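RNA sequencing of 3 siRNA-NC and 3 si-AC010789.1 samples of HCT116 cells was analyzed, grouped by the labels. The authors deposited whole-number counts per Ensembl transcript, without normalization, from paired-end TruSeq libraries. The submitters' processing notes name CASAVA 1.8, TopHat2 2.0.6 and the builds mm10 and GRCh38, with no role for either. The counting program, annotation, strand setting and handling of shared reads are not given in the sources used here, and they affect tRNAs, overlapping genes and nuclear copies most. Cuffdiff, named in the study's methods, needs alignments and was not run.

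Transcript counts were added up to genes by the GENCODE v29 annotation (98782 of 98886 transcripts matched). Genes were tested with edgeR 4.0.16 in R 4.3.3 (TMM, filterByExpr with minimum count 10 and minimum total 15, quasi-likelihood test, common biological coefficient of variation 0.170), with Benjamini-Hochberg adjustment over 13750 genes. CPM used TMM-scaled library sizes. Values per library were compared by two-sided exact permutation tests (scipy 1.17.1). Alternatives were DESeq2 1.42.0, limma 3.58.1 on quantile-normalized values, other scalings, filters, single transcripts, a replicate block and leaving out each library. Scripts were tested on simulated data. All mitochondrial genes are named, the low ones by their range, with 16 fixed nuclear genes, DHX30 and any listed gene that was called. Members and lists were chosen with earlier results of these data known. Floors of 3 counts cover counting error only.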

Additional observations from a re-analysis of the deposited data

How the results depend on the processing

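With 44 to 234 counts per library for the called tRNAs and 1 to 19 for those that were not tested, counting error limits what can be seen. The alternative that adds pseudogene counts was chosen after seeing the data. MT-TF and MT-TV kept their direction in all alternatives, and both calls stayed with RLE size factors, quantile normalization, library sizes without mitochondrial genes, a filter on a mean of 1 CPM and added pseudogene counts. DESeq2 called 1 member, MT-TV, and gave MT-TF no adjusted p. The number of called members was 0 without a filter, with the mitochondrial total as library size, with single transcripts (adjusted p = 0.608 for MT-TF, 6 transcripts called in all) and in all fits that left out a library. The cause was not tested. Whether libraries with the same replicate number shared a generation of cells is not stated, and the numbers were not taken as pairs: deviations from the group means correlated across genes by 0.111, 0.0109 and 0.0164 for numbers 1, 2 and 3, and si-AC010789.1 replicates 2 and 3 correlated best with another number. With the replicate block, 0 members, 0 genes of the nuclear lists and 0 of all genes were called (adjusted p = 0.174 for MT-TF).

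Of all genes, 520 were called with DESeq2, 69 without a filter and 12 to 37 when a library was left out, against 135. Of the nuclear lists, 8 genes were called with DESeq2, 0 without a filter and 0 in each fit that left out a library. Leaving out libraries moved the difference in the mitochondrial share between -0.136 and 0.407 percentage points, where the negative value came without siRNA-NC replicate 1, and that of complex V between -0.114 and 0.0434. Per kb, the complex V difference was 0.361, and without the rRNA genes it was 0.0446.

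Some log2 fold changes near 0 changed sign. When a library was left out, they ran from -0.32 to 0.0074 for MT-TA, from -0.19 to 0.28 for MT-TS1, from -0.052 to 0.085 for MT-CO2, from -0.032 to 0.071 for MT-CO3, from -0.056 to 0.063 for MT-ND4 and from -0.069 to 0.11 for MT-ND5. Among nuclear genes the ranges were -0.055 to 0.024 for TFAM, -0.30 to 0.058 for TEFM, -0.034 to 0.15 for ELAC2 and -0.029 to 0.041 for HSD17B10. Without a filter, with the mitochondrial total as library size and with single transcripts, MT-CO2 was at -0.0060, -0.014 and -0.011, and MT-ND4 at -0.0040, -0.013 and -0.0088. Quantile normalization put MT-CO3 at -0.024.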
